A study of Mus musculus with 6 samples.

Results

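The 78 genes described here carry the symbols of mitochondrial ribosomal proteins, and the subunit given for a group of them follows the symbol. They are every protein-coding gene whose symbol starts with Mrpl (49 genes, large subunit) or Mrps (29 genes, small subunit by symbol) in a gene table of 21900 protein-coding genes. The data are BMAL1 chromatin immunoprecipitation sequencing (ChIP-seq) peak lists from mouse retina, made with a rabbit antibody against the clock transcription factor BMAL1. Wild-type mice gave 3 libraries (control 1 to 3), and mice in which Bmal1 was conditionally knocked out gave another 3 (Bmal1 CKO 1 to 3); all were C57BL/6, were weaned at postnatal day 20 and had no external treatment. The sources used here name no Cre driver, no age or hour at collection and no pooling of animals, and peak lists do not measure RNA, so neither the tissue nor the loss of Bmal1 was checked with markers. Each library has 1 list of peaks, and each peak has a summit, the base where its fragments stack highest. A gene was counted as having an end peak when a summit was found no farther than 1 kb from either of its annotated ends. The rule that picks the genes reads only their symbols, though the set was chosen with earlier results of these data known.

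Mitochondria carry their own ribosomes, which translate the few proteins that the mitochondrial genome encodes, all of them parts of the respiratory chain and ATP synthase. The small subunit decodes the messenger RNA and the large subunit joins the amino acids, and every protein of both is encoded in the nucleus and imported. Photoreceptors hold densely packed mitochondria. CLOCK and BMAL1 bind DNA as a pair, at the E-box CACGTG. The factors NRF1, YY1 and the ETS family (to which NRF2 belongs) are known regulators of nuclear genes for mitochondrial proteins.

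The start regions of 5 genes show what lies under or beside the peaks. Each is 300 bases from RefSeq (assembly GRCm38.p6, whose coordinates are those of mm10), 5′ to 3′ on the strand of the gene, with 250 bases before the listed start. Capitals mark a match to 1 of 4 motifs on either strand, namely CACGTG (E-box), CGCATGCG (core of the NRF1 motif), CCGGAAG (ETS) and AAGATGGC (YY1). Mrps18c (chromosome 5, 100798509 to 100798808, plus strand) had among the highest folds and holds an E-box beside an ETS match. Mrpl2 (chromosome 17, 46645971 to 46646270, plus strand) holds the E-box closest to a summit of control 1. Mrps11 (chromosome 7, 78782881 to 78783180, plus strand) shares its start region, and its peak, with Mrpl46 on the other strand. Mrpl22 (chromosome 11, 58171414 to 58171713, plus strand) had no end peak but has summits at this start, with ETS and NRF1 matches. Mrps30 (chromosome 13, 118387203 to 118387502, minus strand) had the highest fold in Bmal1 CKO 2 and holds none of the 4 motifs.
Mrps18c: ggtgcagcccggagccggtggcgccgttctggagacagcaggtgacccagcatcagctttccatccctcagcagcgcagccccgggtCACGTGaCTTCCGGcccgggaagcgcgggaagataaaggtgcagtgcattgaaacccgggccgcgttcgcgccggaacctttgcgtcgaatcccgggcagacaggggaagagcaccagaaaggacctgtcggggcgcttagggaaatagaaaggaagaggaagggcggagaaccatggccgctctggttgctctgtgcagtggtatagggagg
Mrpl2: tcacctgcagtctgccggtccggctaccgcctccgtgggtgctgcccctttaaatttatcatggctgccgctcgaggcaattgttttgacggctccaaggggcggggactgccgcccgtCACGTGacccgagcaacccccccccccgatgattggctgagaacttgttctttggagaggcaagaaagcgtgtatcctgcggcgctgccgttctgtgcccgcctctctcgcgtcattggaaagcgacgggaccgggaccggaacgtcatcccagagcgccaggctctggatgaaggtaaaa
Mrps11: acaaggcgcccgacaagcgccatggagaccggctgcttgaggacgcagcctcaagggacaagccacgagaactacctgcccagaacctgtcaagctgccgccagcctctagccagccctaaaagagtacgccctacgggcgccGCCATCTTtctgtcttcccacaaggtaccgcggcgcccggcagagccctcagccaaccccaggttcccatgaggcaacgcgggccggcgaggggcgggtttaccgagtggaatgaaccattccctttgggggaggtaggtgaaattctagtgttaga
Mrpl22: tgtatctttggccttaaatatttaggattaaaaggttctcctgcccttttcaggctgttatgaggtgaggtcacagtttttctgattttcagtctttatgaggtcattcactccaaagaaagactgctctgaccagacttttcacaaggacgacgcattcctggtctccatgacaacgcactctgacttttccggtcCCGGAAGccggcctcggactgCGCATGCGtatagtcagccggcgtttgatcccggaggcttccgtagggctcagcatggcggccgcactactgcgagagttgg
Mrps30: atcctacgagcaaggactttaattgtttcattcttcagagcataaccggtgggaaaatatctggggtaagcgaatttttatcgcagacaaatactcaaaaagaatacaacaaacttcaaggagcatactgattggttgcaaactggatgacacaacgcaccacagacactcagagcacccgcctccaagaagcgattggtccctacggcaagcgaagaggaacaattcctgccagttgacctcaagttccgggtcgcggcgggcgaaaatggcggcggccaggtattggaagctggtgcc

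Nearly all of the 78 genes had an end peak in the long lists, those of control 1 (179475 peaks) and Bmal1 CKO 2 (138254 peaks), and none had one in the 4 short lists of 372 to 1444 peaks. In control 1, 73 of 78 genes (93.6%) had an end peak, against 69.5% of all protein-coding genes. In Bmal1 CKO 2, 69 of 78 (88.5%) had one, against 58.9%. Both long lists held a summit at 68 genes (87.2%, against 54.7% of all genes), and neither did at 4 (5.13%, against 26.3%). The large-subunit genes had end peaks at 45 of 49 in control 1 and 43 of 49 in Bmal1 CKO 2, and the small-subunit genes at 28 of 29 and 26 of 29. The count was 0 of 78 in control 2, control 3, Bmal1 CKO 1 and Bmal1 CKO 3, whose shares over the whole gene table were 0.0594%, 0.0594%, 0.342% and 0.105%. A count of 0 of 78 is therefore close to the background of those lists. The nearest summit to any of the 78 genes in a short list lay 31791 to 31797 bp from Mrpl34, in all 4 of them.

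**Figure D1:**
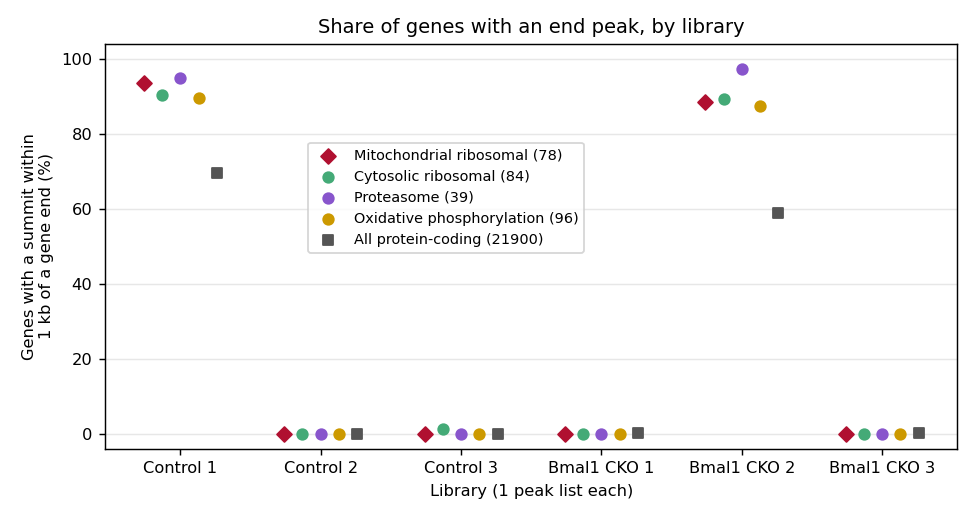
Share of genes with a summit within 1 kb of a gene end (y axis, percent) in each of the 6 libraries (x axis), for the mitochondrial ribosomal protein genes (diamonds), 3 other gene groups (circles) and all protein-coding genes (squares). The diamonds stand at 93.6% in control 1 and 88.5% in Bmal1 CKO 2, above the squares at 69.5% and 58.9%, and at 0 in the other 4 libraries.

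The genotypes were compared by the share of the 78 genes with an end peak in each library. Controls had a mean of 31.2% ± 54.0 (SD, n = 3), and the CKO libraries one of 29.5% ± 51.1 (SD, n = 3). The difference, CKO minus control, was −1.71 percentage points, far smaller than the spread within either genotype (exact two-sided permutation test, p = 1, smallest possible 0.10). Each genotype holds 1 library with high values and 2 at 0, so the direction rests on those 2 long lists: the difference was 29.5 without control 1 and −31.2 without Bmal1 CKO 2, and 0 without both. Nothing in the labels says whether the libraries of 1 genotype came from separate litters or preparations, so the spread may be partly technical.

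By an indirect measure of depth, the libraries with short lists stood below those with long lists. Whether depth accounts for the absence of these genes was not tested. From the fold and p-value of each peak, the number of fragments stacked at its summit and the expected background there can be solved for. The lowest background of a library served as that measure. It was 3.46 fragments for control 1, 5.83 for Bmal1 CKO 2, 2.78 for Bmal1 CKO 1 and 0.560 to 0.852 for the other 3. The value of Bmal1 CKO 1 was thus close to that of control 1. Control 1 had a longer list than Bmal1 CKO 2 at a lower value. The end peaks of the 73 genes in control 1 stacked 15 to 44 fragments (median 33) and those of the 69 genes in Bmal1 CKO 2 stacked 25 to 52 (median 36). Of the 73 peaks of control 1, 0 would keep a p-value as low as the weakest listed peak at the background of control 2, 5 at that of control 3 and 3 at that of Bmal1 CKO 3; of the 69 of Bmal1 CKO 2, 0 would at any of these. Scaled to Bmal1 CKO 1, 66 of the 73 and 30 of the 69 would. That list held none of these genes. Depth, preparation and peak calling cannot be told apart for any of the short lists. No share over all gene-end peaks was counted beside these scaled counts, so they show nothing particular to these genes.

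Of the 10 genes that lacked an end peak in 1 or both long lists, 7 have a listed transcription start. Each of these 7 had a summit within 1 kb of that start in 1 or both long lists. The start lies inside the annotated gene end in all of them but Mrpl34. Control 1 alone had an end peak at Mrpl4, Mrpl34, Mrps2, Mrps23 and Mrps34 (6.41% of members, against 14.8% of all protein-coding genes). Bmal1 CKO 2 alone had one at Mrps31 (1.28%, against 4.22%). Neither list had one at Mrpl18, Mrpl22, Mrpl24 and Mrpl54. A start was listed in the RefSeq promoter table for 69 of the 78 genes. With the distance taken to that start, 68 of 69 genes (98.6%) had a summit within 1 kb in control 1, against 69.2% of the 17492 protein-coding genes with a listed start. In Bmal1 CKO 2 it was again 68 of 69, against 59.7%. Only Mrpl24 in control 1 and Mrpl34 in Bmal1 CKO 2 lacked a summit there, and 67 genes had one in both lists.

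For 6 genes with a single listed start, that start lies more than 1 kb inside the annotated end (Mrpl18, Mrpl22, Mrpl24, Mrpl36, Mrps2 and Mrps23). Mrpl22 (chromosome 11, 58170043 to 58179580) starts 1621 bp inside its lower end, and the summits lay 50 bp from that start in control 1 and 19 bp in Bmal1 CKO 2, with folds of 3.36 and 3.03. Its start region, printed above, thus carries a peak in both lists although both annotated ends count as empty. Mrpl18, which starts 1696 bp inside, had summits 272 bp and 479 bp from its start, with folds of 5.99 in control 1 and 3.27 in Bmal1 CKO 2. Mrpl24 (chromosome 3, 87918131 to 87923450), which starts 1413 bp inside, had a summit 270 bp from its start in Bmal1 CKO 2 (fold 2.45) and none nearer than 5546 bp in control 1. Mrpl24 is therefore the gene of the set whose start is bare in control 1.

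Mrps23 and Mrps2 show the opposite case, an end peak that is not the peak of the start. Mrps23 starts 10282 bp inside its lower end, with summits 58 bp and 55 bp from the start in control 1 (fold 4.44) and Bmal1 CKO 2 (fold 3.12), while its end peak in control 1, 397 bp outside the gene (fold 2.49), also lay at an end of Cuedc1. Mrps2 starts 2115 bp inside and had start summits at 184 bp and 43 bp, with folds of 3.31 and 2.73. Mrpl36 starts 2506 bp inside and had start summits at 250 bp and 49 bp, with folds of 3.86 and 3.02, and its end peaks in both lists lay also at Ndufs6, a gene of respiratory complex I. All 3 therefore had a start summit in both long lists. Mrpl34 (chromosome 8, 71464926 to 71465753) had its summit 408 bp from the start in control 1 and 1208 bp from it in Bmal1 CKO 2.

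Mrpl54, Mrpl4 and Mrps34 have no start in the promoter table. The nearest summit to an end of Mrpl54 lay at 2025 bp in control 1 and 20041 bp in Bmal1 CKO 2, and to Mrps34 at 240 bp and 28858 bp. Mrpl4 had a summit 343 bp from an end in control 1 and 1729 bp in Bmal1 CKO 2. Mrpl54 is thus the 1 gene with no summit near an annotated end or listed start in either list. Around the 1 kb limit, Mrps31 stood just inside in Bmal1 CKO 2 (997 bp) and just outside in control 1 (1069 bp), followed inside by Mrpl23 (963 bp, Bmal1 CKO 2) and Mrpl48 (927 bp, control 1), and outside by Mrpl34 (1208 bp) and Mrpl18 (1217 bp), both in Bmal1 CKO 2.

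**Figure D2:**
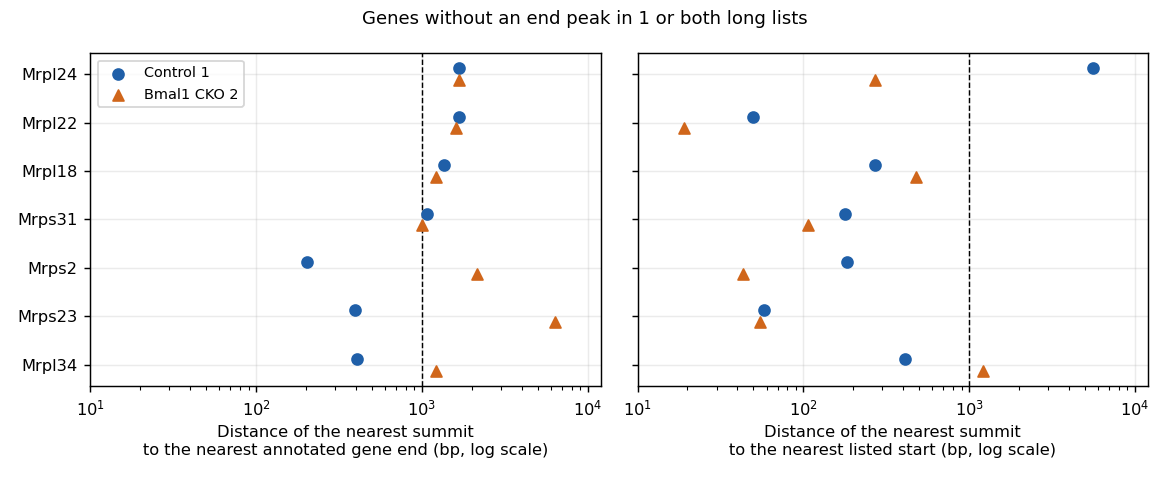
Distance of the nearest summit (x axis, bp, log scale) to the nearest annotated gene end (left) and to the nearest listed start (right) for 7 genes without an end peak in 1 or both long lists, in control 1 (circles) and Bmal1 CKO 2 (triangles). The dashed line marks 1 kb: on the right, only Mrpl24 in control 1 (5546 bp) and Mrpl34 in Bmal1 CKO 2 (1208 bp) lie beyond it.

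Summits sat close to the start and slightly downstream of it. In control 1 the median distance from start to summit was 109 bp over 68 genes, against 150 bp over all genes with a start summit, and in Bmal1 CKO 2 it was 97 bp against 148 bp. Within 200 bp of the start lay 52 of 68 summits (76.5%) in control 1 and 47 of 68 (69.1%) in Bmal1 CKO 2, against 60.7% and 60.6% over all genes. The summit was at or downstream of the start in 42 of 68 and 41 of 68 genes (61.8% and 60.3%), shares near those of all genes (63.6% and 58.4%). Its median position was 44.5 bp downstream in control 1 and 26 bp downstream in Bmal1 CKO 2. Measured to the annotated end, median distances were 127 bp and 131 bp, against 202 bp and 193 bp over all genes with an end peak. Of genes with both an end peak and a listed start, the summit lay at the start end in 64 of 65 in control 1 (98.5%, all genes 88.4%) and in 63 of 63 in Bmal1 CKO 2 (all genes 89.9%). The exception was Mrps18b in control 1, whose nearest summit lay 364 bp outside its other end, at Atat1.

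**Figure D3:**
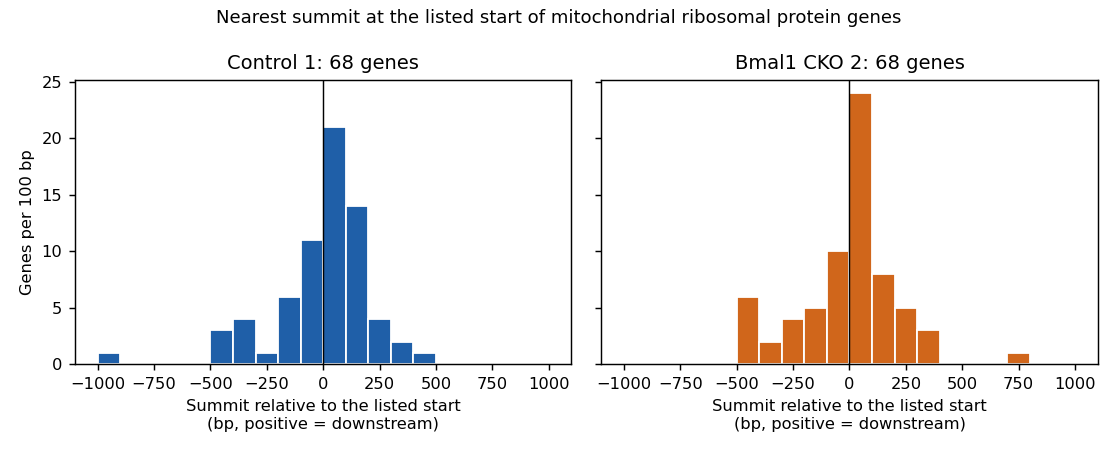
Number of mitochondrial ribosomal protein genes per 100 bp (y axis) by the position of the nearest summit relative to the listed start (x axis, bp, positive values downstream) in control 1 and Bmal1 CKO 2, 68 genes each. Most bars stand within 200 bp of the start, with medians of 44.5 bp and 26 bp downstream.

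The summits of the 2 long lists lay near each other. Among the 68 genes with an end peak in both, the summits were 2 bp to 6647 bp apart (median 115 bp, against 141 bp over the 11974 such genes), and 46 of 68 were within 200 bp (67.6%, against 60.3%). The widest gap belonged to Mrps18b, where the lists used different ends of the gene. Member peaks had a median width of 575 bp in control 1 and 528 bp in Bmal1 CKO 2, against 535 bp and 439 bp over all genes with an end peak.

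Many of these genes share their peak with a neighbour. In control 1 the end summit of 37 of 73 genes (50.7%) also lay within 1 kb of an end of another protein-coding gene, against 19.0% of all genes with an end peak, and in Bmal1 CKO 2 it was 33 of 69 (47.8%), against 20.3%. In all, 37 genes had a shared summit in either list, and 32 of the 33 of Bmal1 CKO 2 had the same partner in control 1. Whatever the peaks, 44 of the 78 genes (56.4%) have another gene's end within 1 kb of one of theirs, against 24.8% of all protein-coding genes. A divergent start within 1 kb on the other strand (or overlapping by up to 100 bp) was listed for 25 of 69 genes (36.2%), against 8.66% of all genes with a start, with a median gap of 131 bp. Of those 25, 24 had a shared summit in control 1, Mrpl18 being the other. At Mrps18b that summit was shared with Atat1 at its other end, not with its divergent gene Ppp1r10. A shared peak cannot be given to 1 of its genes.

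Mrpl46 (large subunit) and Mrps11 (small subunit) are a pair within the set. They start 42 bp apart on opposite strands of chromosome 7, and 1 summit served both. It had a fold of 4.72 from 31 stacked fragments in control 1 and 3.55 from 36 in Bmal1 CKO 2. A few other partners were picked out after their values were seen, and no share of partners by function was counted. Mrps12, whose protein belongs to the decoding centre, starts 147 bp from Sars2, the mitochondrial seryl-tRNA synthetase gene, and had folds of 2.47 and 2.34 in control 1 and Bmal1 CKO 2. Mrpl43 starts 116 bp from Twnk, the gene of the mitochondrial DNA helicase (folds 3.04 and 3.18). Mrpl47 starts 308 bp from Ndufb5, a complex I gene (5.15 and 3.47). Mrpl49 starts 192 bp from Fau, which encodes a cytosolic ribosomal protein (3.09 and 2.48), and Mrpl32 starts 205 bp from the proteasome gene Psma2 (5.60 and 4.09). The strongest shared peaks of control 1 were those of Mrpl44 with Wdfy1 (7.07 and 4.38), Mrps18c with the helicase gene Helq (7.02 and 4.30), Mrpl13 with Mtbp (6.13 and 4.62) and Mrpl48 with Rab6a (5.98 and 4.86).

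End peaks were not limited to genes with a close neighbour. In control 1 these were 41 of 44 (93.2%) with and 32 of 34 (94.1%) without a neighbour, and in Bmal1 CKO 2 they were 37 of 44 (84.1%) and 32 of 34 (94.1%). Over all protein-coding genes the shares were 83.2% with and 65.0% without in control 1, and 72.1% and 54.5% in Bmal1 CKO 2. The members without any close neighbour were thus at 94.1% where all genes of that kind were at 65.0% and 54.5%.

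The fold enrichment of the end peaks, the authors' ratio of summit height to the expected local background, spread over about the same range as at other genes. It ran from 2.38 to 7.33 in control 1 (median 4.11, against 3.81 over all genes with an end peak) and from 2.29 to 5.51 in Bmal1 CKO 2 (median 3.18, against 3.04). Above the median of all gene-end peaks stood 43 of 73 members (58.9%) in control 1 and 37 of 69 (53.6%) in Bmal1 CKO 2. The large-subunit and small-subunit genes had medians of 4.11 and 4.14 in control 1 and of 3.07 and 3.31 in Bmal1 CKO 2. Folds of different libraries depend on their depth, so no difference between them was tested. The fold was higher in control 1 at 62 of the 68 genes listed in both, as at 92.2% of all genes listed in both. The 6 others were Mrpl1, Mrpl20, Mrpl43, Mrps10, Mrps18b and Mrps22. For 3 of them the order turned when the summit nearest the listed start was used: folds in control 1 and Bmal1 CKO 2 were then 5.60 and 3.59 at Mrpl1, 3.02 and 2.91 at Mrps10, and 4.20 and 2.87 at Mrps18b.

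**Figure D4:**
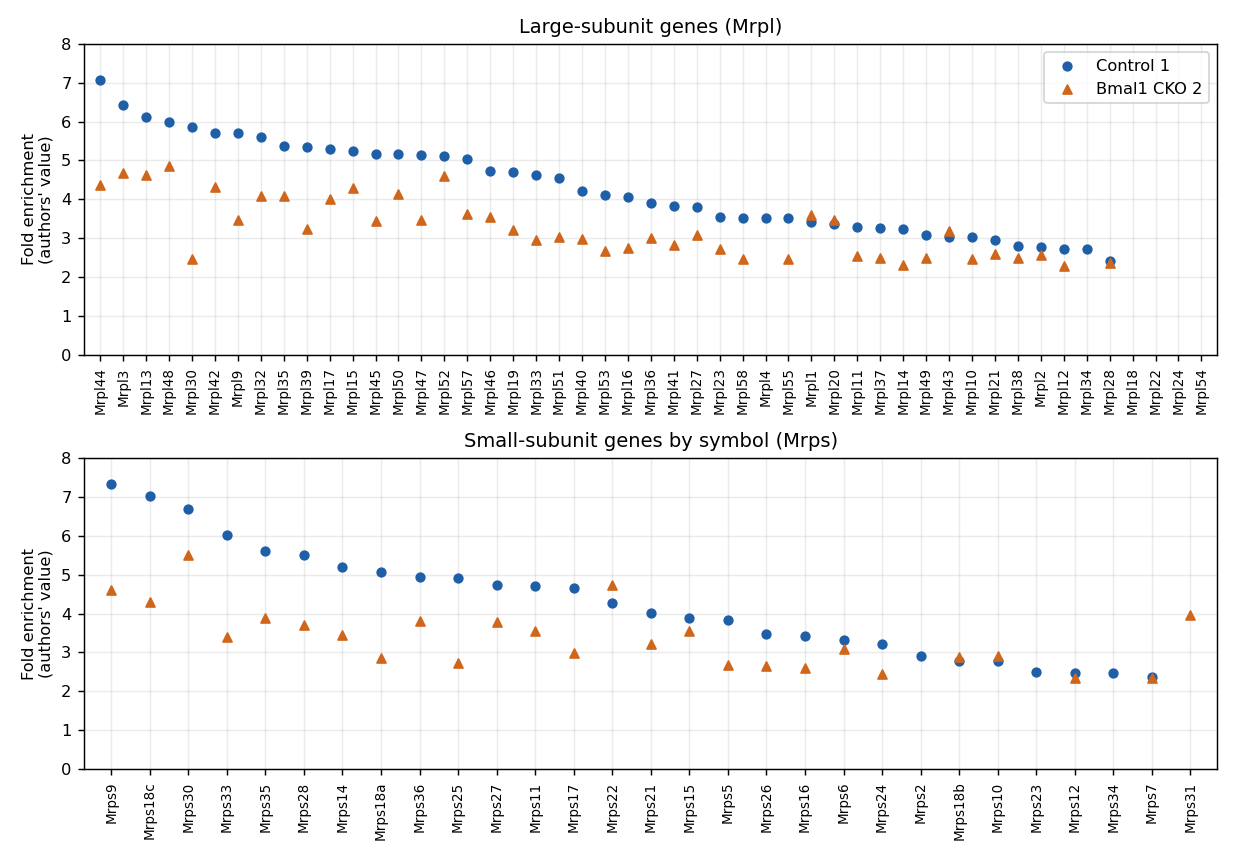
Fold enrichment of the end peak (y axis, the authors' value) for each of the 49 large-subunit genes (top) and 29 small-subunit genes (bottom), ordered by the value in control 1 (circles), with Bmal1 CKO 2 as triangles. A missing symbol means no end peak, as at Mrpl18, Mrpl22, Mrpl24 and Mrpl54, and the folds run from 2.29 to 7.33.

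The highest fold of control 1 was at Mrps9 (chromosome 1, 42851233 to 42905683), a small-subunit gene, with 7.33 from 38 stacked fragments over a background of 4.32, at 10 bp inside its lower end. Its value in Bmal1 CKO 2 was 4.61, from 37 fragments over 7.24. Mrps30 (chromosome 13, 118380110 to 118387252) had 6.70 from 36 fragments in control 1 and 5.51 from 40 fragments in Bmal1 CKO 2, the highest of that list, 67 bp and 12 bp inside its upper end. Although its symbol is of the small-subunit series, its protein is known as a part of the large subunit in mammals. It stood at percentile 96.4 and 98.9 of the gene-end folds of each list. Mrpl3, whose protein lies near the site of peptide bond formation, had 6.44 and 4.68, and Mrps22, a small-subunit gene linked to mitochondrial disease, had 4.27 and 4.74 with its summit exactly at the gene end in Bmal1 CKO 2. The other high values of Bmal1 CKO 2 were 4.86 at Mrpl48 and 4.62 at Mrpl13. Mrpl44, an RNase III-like protein of the large subunit, had 7.07 and 4.38. Mrpl30 differed most in rank between the lists, with 5.87 (percentile 90.6) in control 1 and 2.47 (percentile 17.1) in Bmal1 CKO 2. It was picked out after its values were seen. Ranks in lists of different length cannot show whether the signal at a gene changed, and this was not tested.

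The lowest folds went with a high local background, not with few fragments. In control 1, the 5 genes with the lowest folds stacked 28 to 40 fragments over backgrounds of 10.7 to 15.7, and the 5 with the highest stacked 29 to 40 over 3.66 to 4.84. In Bmal1 CKO 2 the same groups stacked 34 to 42 over 14.1 to 17.1 and 36 to 43 over 6.44 to 8.28. Mrps7, which binds the small-subunit RNA near the decoding site, was lowest in control 1, with a fold of 2.38 from 31 fragments over 12.5, and Mrpl28 and Mrps34 followed with 2.42 and 2.46. Mrpl12, the binding partner of the mitochondrial RNA polymerase, was lowest in Bmal1 CKO 2, with 2.29 from 39 fragments over 16.5, then Mrpl14 (2.31) and Mrps12 (2.34). Across the members, Spearman's rho of fold with background was −0.858 in control 1 (73 genes) and −0.817 in Bmal1 CKO 2 (69 genes), and with stacked fragments 0.238 and 0.237. The fold is computed from both numbers, and the genes of a list share 1 library, so these values only describe what sets the order. The order of folds was alike in the 2 lists (Spearman's rho 0.782, Pearson's r 0.786, 68 genes; rho 0.730 over all 11974 genes listed in both).

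**Figure D5:**
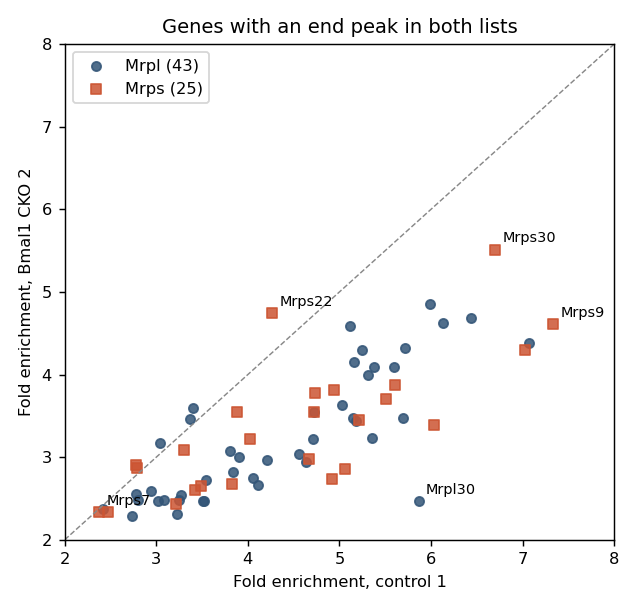
Fold enrichment in Bmal1 CKO 2 (y axis) against control 1 (x axis) for the 68 genes with an end peak in both lists, large subunit as circles (43) and small subunit as squares (25); the dashed line marks equal values. Most genes lie below the line, Mrps22 lies above it, and Mrpl30 stands apart at 5.87 and 2.47.

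In their start regions these genes held ETS, YY1 and NRF1 motifs more often than other genes, but not the E-box. CACGTG occurred in 5 of 69 start regions (7.25%), against 8.91% of the 17492 start regions and 11.1% of those of genes with an end peak in both long lists. CCGGAAG occurred in 26 of 69 (37.7%, against 12.9% and 18.6%), AAGATGGC in 12 (17.4%, against 3.57% and 4.83%) and CGCATGCG in 7 (10.1%, against 2.77% and 4.28%). At least 1 of the 4 was found in 40 of 69. The same share over all genes was not counted, so this number cannot be read as an excess. These are counts of letters in 300 bases and no test was made. A gene with several listed starts was counted once, with all its start regions searched. No match says only that these letters are not in that window.

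The E-box genes were Mrpl2, Mrpl20, Mrpl36, Mrpl37 and Mrps18c. In Mrpl2, a core protein of the large subunit, the centre of CACGTG lay 21 bp from a summit in control 1 and 147 bp from one in Bmal1 CKO 2, and the folds there were 2.77 and 2.56, in the lower part of both lists (percentiles 15.6 and 21.8). In Mrpl36 the distances were 290 bp and 89 bp, in Mrpl20 114 bp and 751 bp, and in Mrpl37 494 bp and 291 bp. In Mrps18c they were 171 bp and 245 bp, with the summits upstream of the printed stretch. No E-box of the set thus lay within 100 bp of a summit in both lists.

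CG-rich start regions had summits more often, and none of the 69 members with a listed start is poor in CG. The 9 members without a listed start were not scored. Over all genes, the start regions were put into 3 classes by their number of CG dinucleotides (0 to 6, 7 to 21, and 22 to 65). The members fell 0, 36 and 33 into these classes, with a median of 21 CG against 13 over all genes. In the middle class 97.2% of members had a start summit in each list, against 86.2% of all genes in control 1 and 74.4% in Bmal1 CKO 2. In the highest class it was 33 of 33 members in both lists, against 95.7% and 85.2%. In the lowest class 30.2% and 23.9% of all genes had one. Within a class the members thus stood closer to all genes than in the whole table, and the part of base composition in their share was not tested.

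Other gene groups, picked by symbol, had shares in the same range. In control 1 and Bmal1 CKO 2, end peaks stood at 76 and 75 of 84 cytosolic ribosomal protein genes (90.5% and 89.3%), 37 and 38 of 39 proteasome genes (94.9% and 97.4%) and 86 and 84 of 96 oxidative phosphorylation genes (89.6% and 87.5%). The members' 93.6% and 88.5% lie among these values. Of the other genes of mitochondrial translation, all 5 subunit genes with other names (such as Dap3 and Ptcd3) had one in control 1 and 4 in Bmal1 CKO 2, where Gadd45gip1 had none. The translation factors had 9 and 10 of 12, Mrrf having a peak in control 1 alone, Mtrf1 and Mtrf1l in Bmal1 CKO 2 alone and Mtif2 in neither. The mitochondrial aminoacyl-tRNA synthetases had 15 and 14 of 17, with Aars2 and Tars2 in neither and Vars2 in control 1 alone. The 22 ribosome assembly genes, such as Eral1 and Noa1, all had one in both lists.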

How the data were processed

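The authors deposited 1 MACS2 peak list per library; per the submitters' processing notes the reads were trimmed with Trim Galore and aligned with Bowtie2 to mm10. Their versions and settings, and whether an input library was used, are not given in the sources used. Per the file layout, the authors' columns hold, for the summit, a fold enrichment (ratio), a −log10 p-value, a −log10 q-value, and a score (the −log10 q-value times 10, truncated), then the summit's offset. Peaks were called per library, and lists were matched to libraries by the series record. Gene ends and start regions came from RefSeq tables (GRCm38.p6); symbols of all 78 genes matched, 69 with a start region. For each gene the summit nearest either end was used; 6 members in control 1 and 4 in Bmal1 CKO 2 had a stronger one within 1 kb too. Stacked fragments were solved from fold (pseudocount 1) and Poisson p-value, whole within 0.02 for 100% of peaks; the matching was checked on simulated peaks. Shares were compared with an exact permutation test over 6 libraries. No test of gene lists was made. Analyses used Python 3.11.15, pandas 2.3.3 and scipy 1.17.1. The members, lists and motifs were chosen with earlier results of these data known. Genes named include all members outside the 68 listed in both, those with the highest and lowest folds and those nearest the 1 kb limit. Also named are 5 members of known function and some of those sharing a peak. The latter are the strongest of control 1 and a few picked out by partner after their values were seen.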

Additional observations from a re-analysis of the deposited data

How the results depend on the processing

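The lists hold only peaks past the authors' threshold, and only 2 of 6 libraries list any of these genes, so every count rests on those 2; the part of depth in the empty lists was not settled. The counts in control 1, in Bmal1 CKO 2, in both and with a shared peak stayed within 1.5 times of the values reported. The settings were windows of 500 bp and 2 kb, only peaks with −log10 q-values from 5 up, long lists of equal length and the start site alone. The first 3 counts were also made with any base of a peak in place of its summit. With the −log10 q-value limit of 5, the count in both lists fell from 68 to 46 and that in Bmal1 CKO 2 from 69 to 48. That in control 1 fell from 73 to 66, and that with a shared peak from 37 to 31. No share over all genes at that limit is given. The number of genes without an end peak in either long list, 4 as reported, was 8 with a window of 500 bp, 1 with 2 kb, 10 with the −log10 q-value limit of 5 and 0 by the start site. The median distance over both lists, 128 bp as reported, was 114 bp with 500 bp, 156 bp with 2 kb and 107 bp to the start site. These shifts follow in part from the window itself. The genotype difference of −1.71 percentage points ranged from −31.2 to 29.5 when 1 library was left out, turning sign without control 1, Bmal1 CKO 1 or Bmal1 CKO 3. It was −3.42 with a window of 500 bp, −7.69 with the −log10 q-value limit of 5, 0 by the start site and 0 without the 2 long lists. With the replicate number as a block (paired differences of same-numbered libraries) it was −1.71 with an exact sign-flip permutation p of 1, where the smallest possible is 0.25. The labels do not say that same-numbered libraries belong together. Distances and sharing were not run for whole peak intervals, which have no single summit. Equal list length was not run for Bmal1 CKO 2, the shorter list.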

Other observations

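Among the other genes of mitochondrial translation, Lars2, the mitochondrial leucyl-tRNA synthetase gene (chromosome 9, 123366927 to 123462675), was the only one with an end peak in a short list, and it had one in all 6 libraries. In the short lists the summit lay 672 to 686 bp inside its upper end, with folds of 16.4 and 14.1 for controls 2 and 3 and of 14.6 and 17.6 for Bmal1 CKO 1 and 3, from 44 to 114 stacked fragments. In the long lists the nearest summit was at the other end of the gene, 7 bp from it in control 1 (fold 6.27) and 68 bp in Bmal1 CKO 2 (fold 4.61). Only the summit nearest either end was used for each list. Whether the long lists also hold a summit at the upper end of Lars2 was therefore not examined. Among the cytosolic ribosomal protein genes, Rps29 was the only one with an end peak in a short list, that of control 3, with a fold of 6.70 from 14 stacked fragments at 145 bp outside its upper end, where control 1 had 6.94 from 48 fragments and Bmal1 CKO 2 had 5.45 from 53. Both genes were picked out after their values were seen.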
